A study of Saccharomyces cerevisiae CEN.PK113-7D with 6 samples.

Results

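Transcripts of the proteins of the small (40S) subunit of the cytosolic ribosome were compared between chemostat and batch cultures on glucose of CEN.PK113-7D, a haploid strain of the yeast Saccharomyces cerevisiae. The members are all genes whose current symbol is RPS, a number and, for duplicated genes, a final A or B. The reference gene table holds 56 such genes, and 52 of them had a probe set on the arrays, out of 5449 yeast genes measured. The other 4 were not analysed here. Total RNA from 3 chemostat samples (replicates 4, 8 and 9) and 3 batch samples (replicates 1, 2 and 3), all of the same unmodified strain, was hybridised to 6 single-channel GeneChip arrays. A chemostat is fed and drained continuously at a constant rate, and a batch culture receives no fresh medium. Per the labels, biomass was taken at steady state. They give neither a dilution rate or limiting nutrient for the chemostats nor a growth phase for the batches. No label states whether each replicate had its own culture, and p-values therefore measure no more than how these samples scatter, which may be technical scatter.

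The 40S subunit binds mRNA, reads its codons against tRNA and carries out the scanning step of translation initiation. It is built from 18S rRNA and ribosomal proteins, each present in a single copy, and is divided into a head, a body and a platform. Most of these proteins are encoded in yeast by a pair of nearly identical genes, A and B, left from an ancient genome duplication. Ribosomal protein genes are among the most strongly transcribed genes of growing yeast. They are known to be regulated together, with nutrients and growth rate, through the promoter proteins Rap1, Fhl1, Ifh1 and Sfp1 and the kinases TORC1, Sch9 and protein kinase A.

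The arrays were similar in overall level, with the median gene between 7.95 and 7.97 on all 6. Values are log2 signals, and changes are chemostat minus batch with limma's standard error (SE), n = 3 arrays per group. The base of the log scale was inferred from the range of the deposited values (4.95 to 13.3). Signals are relative to the other transcripts of the same array, so an amount of RNA per cell was not measured. In such bulk RNA, fewer cells with a transcript and less RNA per cell cannot be told apart. The 5 genes specific to a cells had group means between 7.38 and 11.18, and CEN.PK113-7D is known as a MATa strain. Of these 5, 4 were lower in chemostat (limma, adjusted p under 0.05, against 44.8% of all genes), by 1.14 for STE6 to 2.13 for STE2. MFA1 was not called. Of 3 alpha-cell genes, MF(ALPHA)2 was below background in both groups, MF(ALPHA)1 had 6.55 in chemostat and 5.60 in batch, and STE3 had 7.13 in chemostat and 6.60 in batch, against a background of 5.94. MF(ALPHA)1 and STE3 were called higher in chemostat, against 33.6% of all genes. The cause of these changes was not tested.

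All 52 measured members were lower in chemostat. Each passed the moderated test of limma after Benjamini-Hochberg adjustment over all genes, against 44.8% of all genes called lower and 78.4% called in either direction. None was higher, also at an unadjusted p under 0.05, whereas 33.6% of all genes were called higher. For all 52 the highest chemostat array lay below the lowest batch array, which held for 46.4% of all genes. In either direction the groups were apart for 81.7% of all genes. The median change of the members was -0.55 and that of all genes was -0.06. The changes ran from -1.22 for RPS26B to -0.14 for RPS23A. On the brightest probe sets, 3 members fell by 2-fold or more, 27 fell by 0.5 to 1 on the log2 scale, and 22 fell by less. The shares of all genes in these ranges were not counted. A stricter test that requires a change of at least 1.5-fold (limma's treat) called 15 members lower, against 10.4% of all genes.

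**Figure D1:**
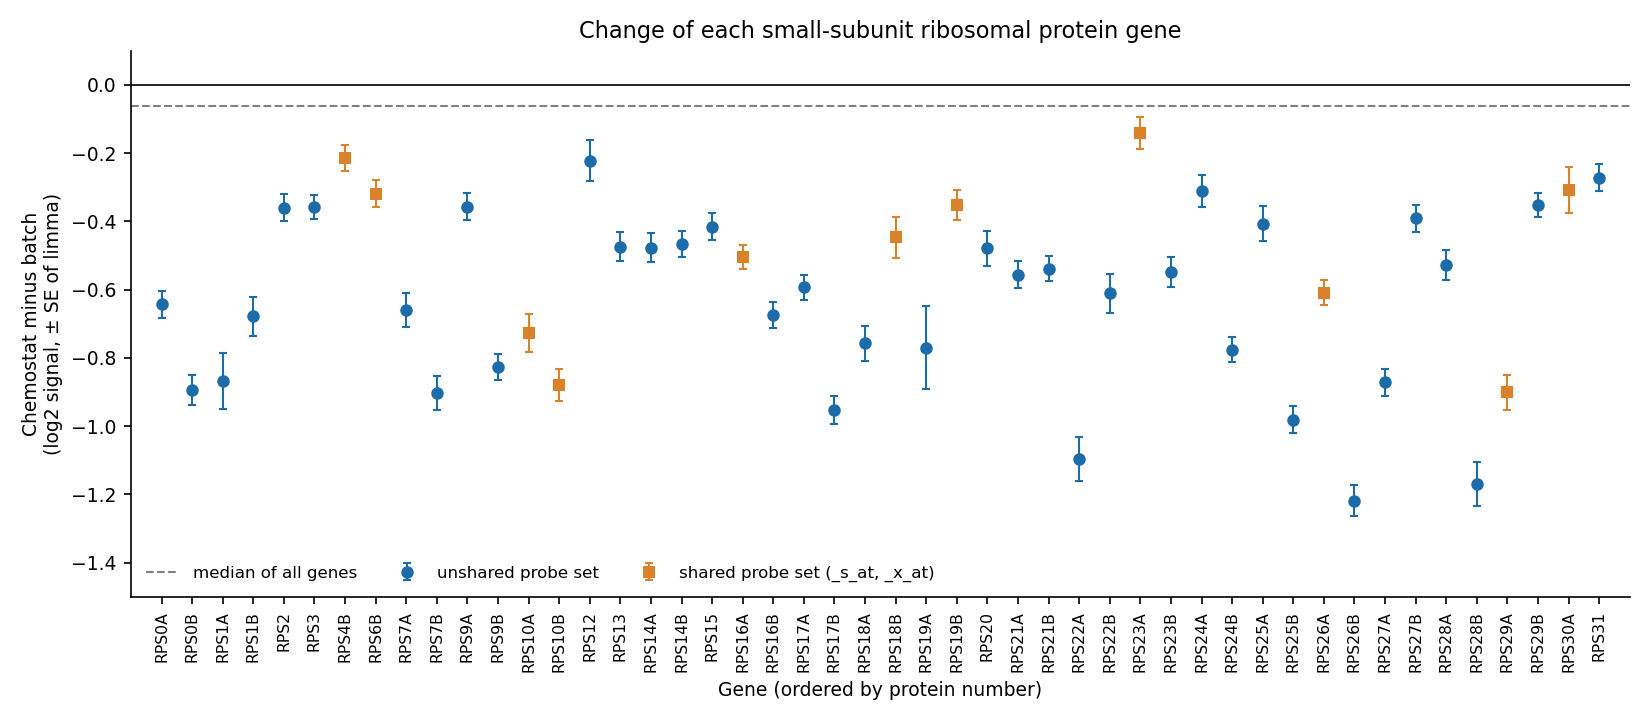
Change of 48 of the 52 genes (chemostat minus batch, log2 signal; bars are limma's SE, n = 3 arrays per group), ordered by protein number, with round points for unshared and square points for shared probe sets. Every point lies below the dashed median of all genes (-0.06), and the changes run from -1.22 for RPS26B to -0.14 for RPS23A.

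The members lay high above background on every array. Their signals ran from 10.10 to 12.51 in chemostat and from 10.42 to 12.74 in batch, and the highest deposited value of any probe set was 13.3. Replicates were close, with a median SD per gene of 0.026 in chemostat and 0.044 in batch. The most variable member in chemostat was RPS28B (SD 0.12) and in batch RPS19A (SD 0.27). Batch replicate 3 was the lowest of the batch arrays for 31 of the 52 members, and chemostat replicate 4 was the highest of the chemostat arrays for 31. Batch replicate 3 lay more than 0.2 away from the average of its fellow arrays for 4 members, and batch replicate 1 did so for 2. No chemostat array did so for any member.

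The 7 measured single-copy genes changed by -0.22 (RPS12) to -0.48 (RPS20). Their median change was -0.36, and that of the 45 measured duplicated genes was -0.61. RPS2 and RPS3 encode proteins at the channel through which mRNA enters the subunit. RPS2 had 12.07, 12.03 and 12.00 in chemostat, against 12.39, 12.41 and 12.38 in batch, a change of -0.36 (SE 0.038, adjusted p = 4.13e-05). RPS3 had 12.20, 12.17 and 12.18 in chemostat and 12.55, 12.54 and 12.53 in batch, a change of -0.36 (SE 0.036). The groups were far apart relative to their spread for both genes. RPS15, whose protein sits in the head and reaches towards the decoding site, had 12.24, 12.17 and 12.15 in chemostat, against 12.59, 12.61 and 12.62 in batch. RPS13, a body protein that contacts the large subunit, had 12.02, 11.91 and 11.94 in chemostat and 12.41, 12.45 and 12.44 in batch. RPS20, another head protein, had 11.82, 11.77 and 11.83 in chemostat and 12.34, 12.33 and 12.19 in batch. No groups overlapped, and the changes were -0.42 (SE 0.040) for RPS15, -0.47 (SE 0.042) for RPS13 and -0.48 (SE 0.051) for RPS20.

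Among the 7 single-copy genes, RPS12 and RPS31 fell least, and both encode proteins of the beak, a projection of the head. RPS12 had 12.27, 12.24 and 12.30 in chemostat, against 12.58, 12.54 and 12.36 in batch. Batch replicate 3 was low and came close to the chemostat arrays, and the change was -0.22 (SE 0.060, adjusted p = 0.00926). RPS31, which is translated as a fusion with ubiquitin, read 12.13 on each of the 3 chemostat arrays, against 12.43, 12.43 and 12.35 in batch. It fell by 0.27 (SE 0.040, adjusted p = 0.000311). Over the whole subunit, the 21 measured head genes had a median change of -0.53 and the 31 measured body and platform genes one of -0.55. The difference between these medians was not tested.

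The largest falls on the brightest probe sets were all in duplicated genes. RPS26B, whose protein lies at the mRNA exit channel and joins the subunit late in its assembly, had 10.69, 10.60 and 10.65 in chemostat and 11.81, 11.91 and 11.88 in batch. It was 2.33-fold lower in chemostat (log2 change -1.22, SE 0.045, adjusted p = 1.23e-07). RPS28B, a head protein near the same channel, had 10.39, 10.28 and 10.16 in chemostat, against 11.38, 11.48 and 11.47 in batch. It was 2.25-fold lower (log2 change -1.17, SE 0.064, adjusted p = 8.38e-07). The Rps28 protein is known to promote decay of the RPS28B mRNA. RPS22A, which encodes a body protein bound to 18S rRNA, had 10.62, 10.56 and 10.60 in chemostat and 11.81, 11.72 and 11.55 in batch, and was 2.14-fold lower. RPS25B, a head protein needed for initiation at internal ribosome entry sites, had 10.49, 10.46 and 10.47 in chemostat, against 11.48, 11.48 and 11.40 in batch. RPS17B, another head protein, had 11.11, 11.11 and 11.10 in chemostat and 12.00, 12.10 and 12.07 in batch. The changes were -0.98 (SE 0.040) for RPS25B and -0.95 (SE 0.040) for RPS17B. In each of these 5 genes the gap between groups was several times the spread within either.

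**Figure D2:**
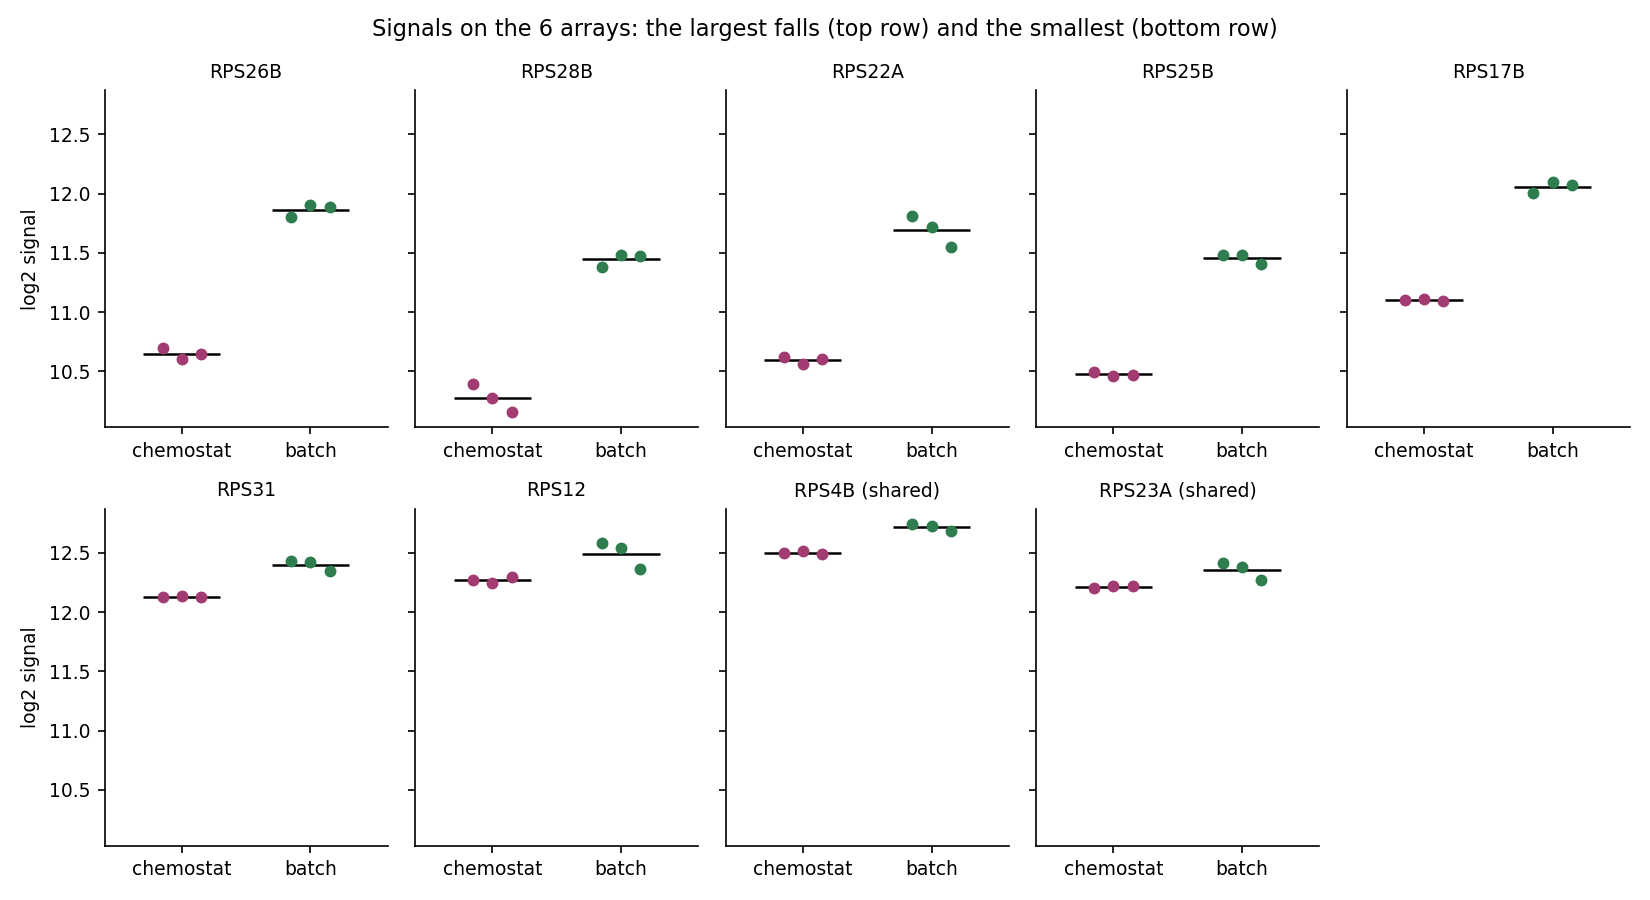
Log2 signal on each array, with chemostat left of batch in each panel, for the 5 genes with the largest falls (top row) and 4 of the 5 with the smallest (bottom row); points are arrays and bars are group means, on 1 axis for all panels. The groups are separate in every panel, by most for RPS26B (-1.22) and by least for RPS23A (-0.14), where batch replicate 3 lies close to the chemostat arrays.

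Some of the smallest falls were in genes read from probe sets that do not belong to 1 gene. On these arrays the suffix _s_at marks a probe set whose probes match several transcripts, and _x_at one in which some probes do. For 13 members the brightest probe set, which stood for the gene, was of such a shared kind. RPS23A, whose protein lies at the decoding centre, had 12.21, 12.22 and 12.22 in chemostat, against 12.42, 12.38 and 12.27 in batch (change -0.14, SE 0.047, adjusted p = 0.0236). Its call was the weakest of the 52 and ended when any 1 of batch replicates 1 and 2 or the chemostat replicates was left out, with adjusted p between 0.0537 and 0.0715. It also ended after quantile normalization (change -0.07) and after centring each array on its S. pombe median (change -0.11). RPS4B, a body protein, had 12.50, 12.51 and 12.49 in chemostat and 12.74, 12.72 and 12.68 in batch, and fell by 0.21 (SE 0.037). RPS4B, RPS6B and RPS30A had a shared probe set and no other, and changed by -0.21, -0.32 and -0.31. Since their paralogs were not analysed here, these values may belong to either copy.

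A second probe set, fitted together with all probe sets of the arrays, gave a different size of change for many of these genes. For 13 genes both a shared and an unshared probe set were on the array, and 10 of the shared ones showed the smaller fall. The median change over these 13 genes was -0.47 on shared and -0.76 on unshared probe sets. RPS23A fell by 0.58 (SE 0.025) on its unshared probe set, with 11.26, 11.28 and 11.32 in chemostat, against 11.88, 11.86 and 11.85 in batch. Its weak call therefore belonged to the shared probe set. The exceptions, with the larger fall on the shared probe set, were RPS16A, RPS24A and RPS26A. Of the 7 genes with an _s_at probe set, 6 fell less on it, and the widest gaps were among these 7.

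**Figure D3:**
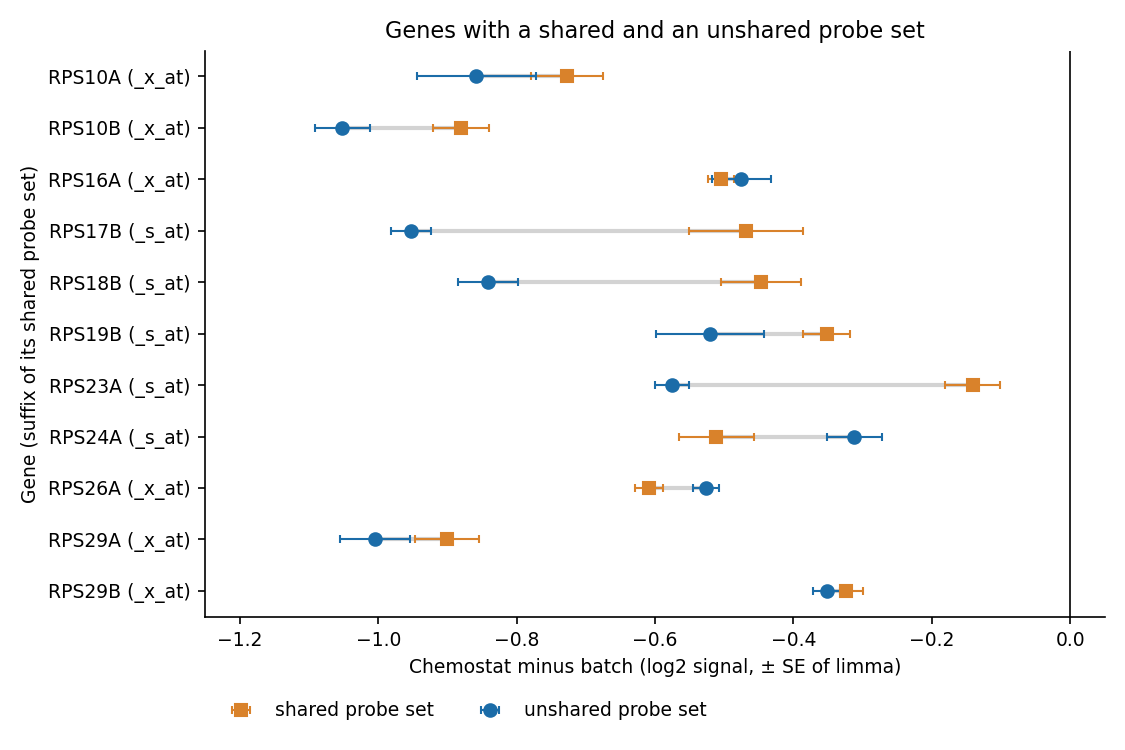
Change (chemostat minus batch, log2 signal; bars are limma's SE) of 11 of the 13 genes with both a shared probe set (squares) and an unshared one (circles). The shared probe set shows the smaller fall in 8 of these 11 genes, as for RPS17B (-0.47 shared, -0.95 unshared), and RPS16A, RPS24A and RPS26A run the other way.

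When the unshared probe set stood for each gene that has one, all 52 members were again lower, against 44.8% of all genes, and the median change was -0.58. On these probe sets 6 members, in place of 3, fell by 2-fold or more, a share not counted over all genes. Among them were RPS10B, a head protein, at 2.07-fold lower and RPS29A at 2.01-fold lower, both past RPS25B and RPS17B. The 42 duplicated genes with an unshared probe set then had a median of -0.68, while that of the single-copy genes stayed at -0.36. This choice of probe set was made after the data were seen.

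The size of the fall moved with the brightness of the probe set. Across the 52 members, batch signal and change had a Pearson r of 0.42 and a Spearman rho of 0.57, so brighter members fell less. Over the 49 genes with an unshared probe set, read from it, r was 0.34 and rho 0.46. These are descriptions across genes of the same 6 arrays, and signals of different probe sets also differ in probe affinity. The 5 members with batch signals of at least 12.5 had a median change of -0.36, and the 5 with batch signals from 11 to 11.5 had one of -0.88. The 3 members below 11 (RPS9A, RPS14B and RPS22B) had a median of -0.47. The part of signal brightness in the size of the changes was not tested. The contrast between single-copy and duplicated genes moves with it as well, since all 7 single-copy genes had batch means of at least 12.28.

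**Figure D4:**
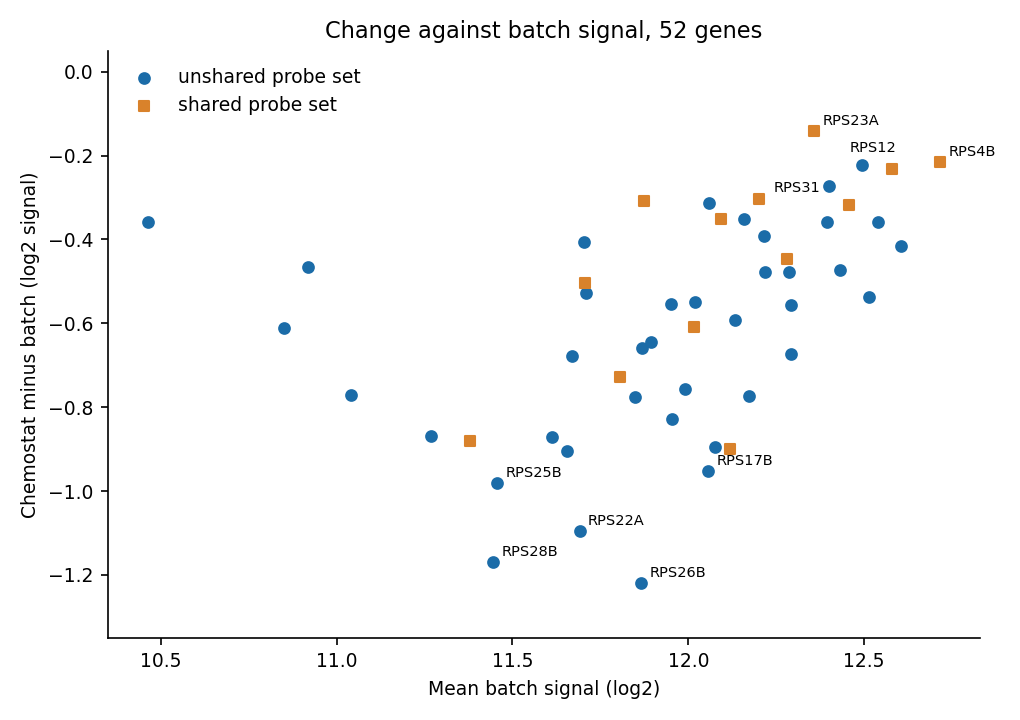
Change (chemostat minus batch, log2 signal) against mean batch signal (log2) for the 52 members, with circles for unshared and squares for shared probe sets and labels for the 5 largest and 4 of the 5 smallest falls. The 5 members at batch signals of 12.5 or more have a median of -0.36, the 5 largest falls lie between 11 and 12.5, and the 3 dimmest genes lie between -0.36 and -0.61.

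Both copies were measured for 21 of the 24 duplicated proteins, which allowed a test of whether A and B fell by unequal amounts. The difference A minus B on each array was compared between modes with limma over all 52 gene pairs of the arrays named A and B, nearly all of them ribosomal. The level of A against B was not read, since probe sets differ in affinity. For 19 of the 21 pairs the change was unequal (adjusted p under 0.05), against 88.5% of all 52 pairs, so unequal change was about as frequent as among the other pairs. B fell more in 12 pairs and A in 7, against 25 and 21 among all 52 pairs. On unshared probe sets throughout, 15 of the 21 pairs were called, against 80.8% of all pairs, with B falling more in 10 and A in 5. With unshared probe sets preferred, B fell more in 24 of all 52 pairs and A in 18. Whether the small-subunit pairs differ from the other pairs in direction was not tested. On the brightest probe sets, none of the 21 pairs differed by significantly more than 1.5-fold (limma's treat, and none at an unadjusted p under 0.05). The share of all 52 pairs called under treat was not counted. Treat was not run on pairs read from unshared probe sets. There the 95% interval of the RPS26 shift, 0.60 to 0.79, lay wholly above a 1.5-fold gap. RPS26 had the largest shift of the 21 pairs and was picked after its value was seen, so this unadjusted interval does not replace the test.

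Among pairs whose brightest probe sets were both unshared, RPS28 was the most unequal. RPS28A had 11.23, 11.19 and 11.13 in chemostat, against 11.71, 11.75 and 11.67 in batch, and fell by 0.53 (SE 0.045), while RPS28B fell by 1.17. The shift of A minus B was 0.64 (SE 0.045, adjusted p = 1.14e-07). RPS25A had 11.29, 11.28 and 11.32 in chemostat and 11.73, 11.78 and 11.61 in batch, and fell by 0.41 (SE 0.051), against 0.98 for RPS25B. RPS9, whose protein is known to affect the accuracy of decoding, differed in the same direction. RPS9A had 10.11, 10.10 and 10.11 in chemostat, against 10.50, 10.47 and 10.42 in batch, and RPS9B had 11.12, 11.10 and 11.16 in chemostat and 11.97, 11.95 and 11.95 in batch. RPS9A fell by 0.36 (SE 0.039) and RPS9B by 0.83 (SE 0.037). RPS24, a body protein, followed, with -0.31 (SE 0.047) for RPS24A and -0.78 (SE 0.036) for RPS24B.

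In other pairs the A copy fell more. RPS22B had 10.19, 10.24 and 10.29 in chemostat, against 10.89, 10.92 and 10.74 in batch, a change of -0.61 (SE 0.057) beside -1.10 for RPS22A. The shift of A minus B was -0.48 (SE 0.046). RPS27, a zinc-binding body protein, had a shift of -0.48 (SE 0.041): RPS27A had 10.79, 10.72 and 10.71 in chemostat and 11.60, 11.63 and 11.62 in batch, and RPS27B read 11.82 on each of the 3 chemostat arrays, against 12.24, 12.25 and 12.16 in batch. RPS1, a platform protein, differed by less, with -0.87 (SE 0.083) for RPS1A and -0.68 (SE 0.058) for RPS1B and a shift of -0.19 (SE 0.041). The largest shifts on unshared probe sets belonged to RPS26, at 0.69 (SE 0.044), and to the zinc-binding head protein RPS29, at -0.65 (SE 0.049), with means of 10.85 in chemostat and 11.85 in batch for RPS29A and a change of -0.35 for RPS29B. RPS26 and RPS29 are named after their values were seen.

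**Figure D5:**
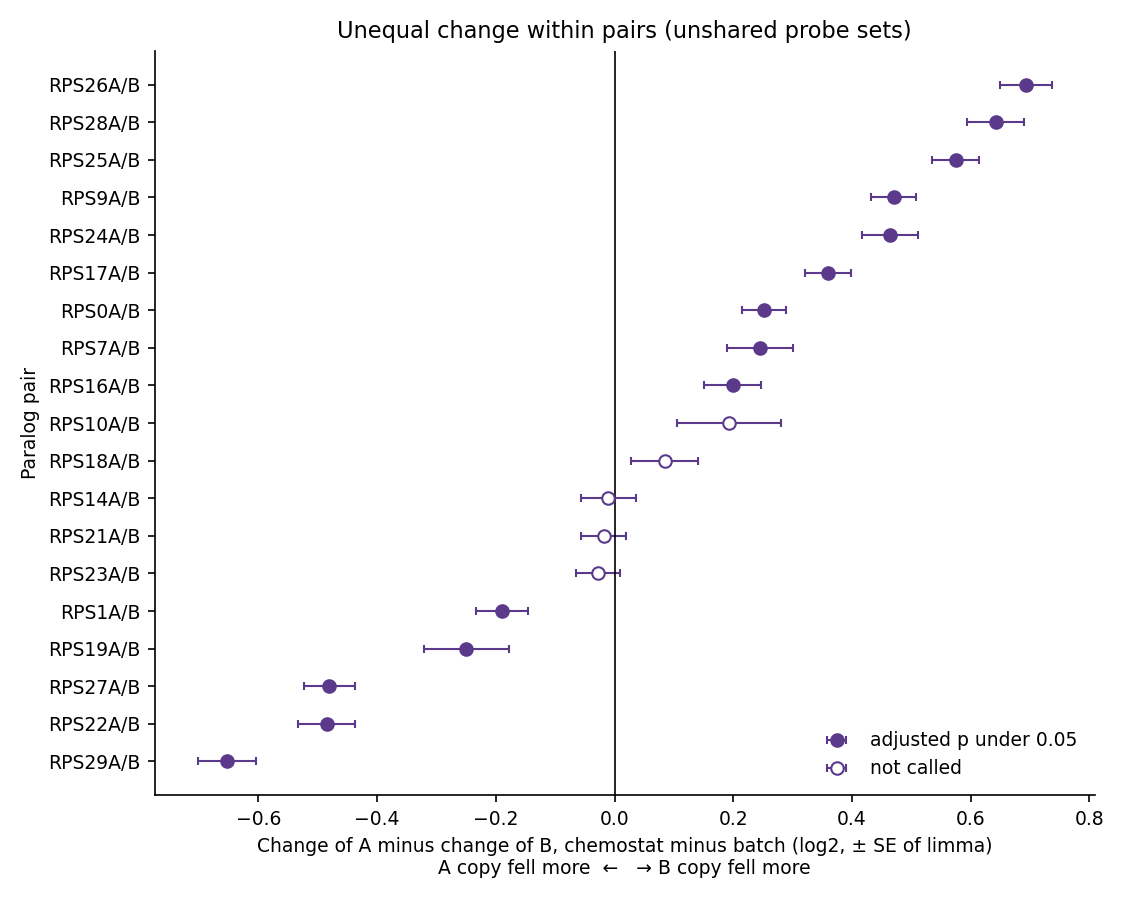
Change of A minus change of B (chemostat minus batch, log2; bars are limma's SE) for 19 of the 21 measured paralog pairs on unshared probe sets, with filled points for adjusted p under 0.05. To the right of 0 the B copy fell more (9 called pairs, led by RPS26 at 0.69), to the left the A copy (5 called pairs, led by RPS29 at -0.65), and 5 open points were not called.

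For some pairs no difference was detected. RPS14A, which encodes a platform protein, had 11.77, 11.72 and 11.73 in chemostat, against 12.26, 12.23 and 12.15 in batch, and RPS14B had 10.47, 10.46 and 10.43 in chemostat and 10.94, 10.87 and 10.94 in batch. Their falls of 0.48 (SE 0.044) and 0.47 (SE 0.039) differed by -0.01 (95% interval -0.11 to 0.09 on unshared probe sets, adjusted p = 0.843). After quantile normalization the RPS14 shift was 0.13 and passed (adjusted p = 0.01). RPS21A and RPS21B, whose protein neighbours Rps0, fell by 0.56 (SE 0.040) and 0.54 (SE 0.037), a difference of -0.02 (95% interval -0.10 to 0.07 on unshared probe sets). In other pairs the answer rested on the probe set. RPS23 had a shift of 0.41 with the shared probe set of RPS23A and -0.03 without it. RPS18 turned from -0.31 to 0.08 (adjusted p = 0.181). RPS10, whose brightest probe sets were shared in both copies, passed at 0.15 (adjusted p = 0.0274) but not on unshared probe sets (0.19, adjusted p = 0.0609).

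Probe sets for small-subunit proteins of the fission yeast Schizosaccharomyces pombe share the array. The 7 such probe sets read between 5.11 and 5.80 on the 6 arrays. They lay below the background of 5.94, which is itself drawn from the S. pombe probe sets. Their position therefore gives no independent measure of specificity. None changed between modes at an adjusted p under 0.05, and the share of all S. pombe probe sets that changed was not counted. The largest difference was that of rps2, with 5.17 in chemostat and 5.26 in batch (adjusted p = 0.0673).

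Transcripts of most proteins listed as joining or helping to build the 40S subunit were lower too. ASC1, the yeast RACK1 protein on the 40S head, had 11.91, 11.87 and 11.91 in chemostat, against 12.30, 12.30 and 12.31 in batch, and fell by 0.41 (SE 0.036). STM1, which occupies the mRNA channel of idle ribosomes, fell by 0.48 (SE 0.042). Of 13 chaperones of small-subunit proteins and late assembly factors, 11 fell, 2 did not pass (HRR25 and RIO1, named after their values were seen) and none rose at an unadjusted p under 0.05, with a median of -0.44, against 44.8% of all genes lower and 33.6% higher. TSR2, the chaperone that delivers Rps26, had 7.80, 7.78 and 7.77 in chemostat and 8.78, 8.97 and 8.94 in batch, a change of -1.11 (SE 0.055, adjusted p = 4.89e-07). ENP1 and TSR1, both pre-40S assembly factors, fell by 0.97 (SE 0.052) and 0.81 (SE 0.068).

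Of 14 regulators of ribosomal protein genes, 6 were lower, 5 were higher and 3 missed the threshold. Their median change was -0.04. The called shares were near those of all genes, 44.8% lower and 33.6% higher. CRF1, the corepressor that competes with Ifh1 for Fhl1, had 7.11 ± 0.08 in chemostat and 5.40 ± 0.06 in batch (SD, n = 3 each). The batch signal lay below background, so the gene was at least 2.21-fold higher. YAK1, the kinase that activates Crf1, had 8.79, 8.93 and 8.94 in chemostat and 7.60, 7.41 and 7.52 in batch, a rise of 1.38 (SE 0.063). LST8, a subunit of both TOR complexes, rose by 0.39 (SE 0.054), and HMO1, a high mobility group protein bound at many ribosomal protein promoters, fell by 0.37 (SE 0.047). The transcripts of IFH1, RAP1, FHL1 and SFP1 changed by less than that of HMO1, and the activity of these proteins was not measured. IFH1 fell by 0.19 (SE 0.039, adjusted p = 0.00251), RAP1 by 0.14 (SE 0.047, adjusted p = 0.0214) and FHL1 by 0.12 (SE 0.044, adjusted p = 0.0296). SFP1 had 7.80, 7.83 and 7.85 in chemostat, against 7.84, 7.74 and 7.89 in batch, with overlapping groups (adjusted p = 0.987). The calls of RAP1 and FHL1 ended when some single arrays were left out. Only 3 regulators in place of 6 were lower when batch replicate 3 or either of chemostat replicates 4 and 8 was dropped. The share of all genes lower without those arrays was not counted. IFH1, RAP1, FHL1 and SFP1 are named after their values were seen.

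The large subunit gave similar numbers. Of 75 measured genes of its proteins and stalk, 73 were lower, 2 did not pass and none was higher at an unadjusted p under 0.05, with a median change of -0.59 beside -0.55 for the small subunit. Those that did not pass were RPL10, with 12.62 in chemostat and 12.69 in batch (adjusted p = 0.0941), and RPL15B, with 8.93 in chemostat and 8.84 in batch (adjusted p = 0.0862), both named after their values were seen. Over all genes 44.8% were lower and 33.6% higher. Among 20 genes of the mitochondrial small subunit, 14 were lower, 6 did not pass and none was higher at an unadjusted p under 0.05, with a median of -0.31. Differences between these sets were not tested.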

How the data were processed

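The authors deposited a signal for each probe set on each array, taken here as log2 from the range of the values. These signals were computed by PLIER, per the submitters' processing notes, with no version or settings stated. The signals were used as deposited, and no value column was left unused. The platform annotation tied 5498 of the 10928 probe sets to a single S. cerevisiae gene, with symbols updated through a reference gene table (assembly R64). The brightest probe set on average stood for each of 5449 genes, 116 of them on a shared one. Chemostat was compared with batch, with no covariate, using the two-sided moderated test (lmFit, eBayes) of limma 3.58.1 under R 4.3.3. P-values were adjusted over all genes by Benjamini and Hochberg's method, and those under 0.05 were called. A minus B differences were fitted likewise over all 52 pairs. Background was the 95th percentile of 1746 S. pombe probe sets. A gene below it in 1 group only was given a bound, from the chemostat mean and, per batch array, the higher of that array's percentile and the gene's own signal. The number of arrays limits the precision.

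Members, lists and tests were chosen with earlier results of these data known. The text names the single-copy genes, the 5 largest and 5 smallest falls, the 6 most and 3 least unequal pairs on unshared probe sets, and, in each other list, the 3 largest passing changes and the largest in the other direction; any further name was picked with its values known. Certain items named by this rule are not reported here, and no figure names them. Lists of the other ribosomal genes are given by counts. Alternatives were quantile normalization, centring on the gene or the S. pombe median, subtraction of the S. pombe median with a floor of 16, dim genes removed, robust trended variance, weighted arrays, a gene's probe sets averaged, all probe sets tested, removal of shared probe sets, each replicate left out, an adjusted p under 0.01 and limma's treat at 1.5-fold. An unshared probe set in place of the brightest, and 2 arrays per group (without batch replicate 3 and chemostat replicate 4), were added after the data were seen. A pseudocount planned for linear values did not apply. The scripts were tested on simulated data. Promoter motifs, gene sequences and RNA sequencing of the same extractions were not analysed here.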

Additional observations from a re-analysis of the deposited data

How the results depend on the processing

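No paired analysis was possible because the groups share no replicate number. The number of lower small-subunit genes stayed between 51 and 52 when each replicate was left out, and the median change ranged from -0.59 (shared probe sets removed) to -0.46 (quantile normalization, which moved the median of all genes to -0.10). Requiring a 1.5-fold change (treat) left 15 of 52 small-subunit genes and 24 of 75 large-subunit genes lower, against 10.4% of all genes. It left 1 of 20 mitochondrial small-subunit genes and 4 of 13 chaperone and assembly genes lower. Of the 14 regulators, 2 were higher under treat, and the share of all genes higher under it was not counted. Treat left 0 unequal small-subunit pairs, 0 lower regulators and 0 of ASC1 and STM1, with 0 of each at an unadjusted p under 0.05. The share of all 52 pairs called under treat was not counted. Among pairs without a shared probe set, 10 of 12 small-subunit pairs were unequal (adjusted p under 0.05), against 30 of all 36. In the other direction, 1 large-subunit gene was higher after quantile normalization, S. pombe centring, background subtraction or array weights. S. pombe centring and background subtraction gave 2 higher mitochondrial genes and 1 higher assembly gene, array weights and testing all probe sets also gave 1 higher assembly gene, and leaving out 1 replicate gave 0 to 1 higher in both lists (1 mitochondrial gene without batch replicate 1, 1 assembly gene without chemostat replicate 4). Lower regulators numbered 3 to 5 with 1 replicate left out, 2 at an adjusted p under 0.01 and 2 with 2 arrays per group. Except for genes lower under treat, the share of all genes called was not counted under the settings of these counts. On unshared probe sets the RPS18 shift turned to 0.0846 and RPS23 to -0.0274; this alternative reads other probe sets. Around 0, the RPS14 shift was 0.13 after quantile normalization (adjusted p = 0.01, a call absent without it) and between -0.0547 and 0.0205 with 1 replicate left out, and the RPS21 shift was 0.0284 and between -0.0366 and 0.0008. SFP1 was 0.0271 with S. pombe centring, 0.00453 after background subtraction, 0.0206 with array weights, 0.0432 with 2 arrays per group and between -0.0421 and 0.0316 with 1 replicate left out. The causes of the other differences were not tested.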

Other observations

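Several small-subunit genes lie next to another ribosomal protein gene in the reference gene table, and neighbours did not always change by like amounts. In 7 adjacent pairs with both genes measured, RPS22A fell by 1.10 (SE 0.066), its divergent neighbour RPL39 by 0.64 (SE 0.059) and its convergent neighbour RPS14B by 0.47 (SE 0.039). RPS16B fell by 0.67 (SE 0.039) beside its divergent neighbour RPL13A at -1.33 (SE 0.039), whereas the paralogous arrangement of RPS16A and RPL13B gave -0.50 (SE 0.035) and -0.52 (SE 0.039). RPS15 and its divergent neighbour RPP2A, a stalk protein gene, fell by 0.42 (SE 0.040) and 0.60 (SE 0.038). On the same strand, RPS9B and RPL21A changed by -0.83 (SE 0.037) and -0.43 (SE 0.042), and RPS19B, read from a shared probe set, and RPL18B by -0.35 (SE 0.044) and -0.40 (SE 0.037). All these falls passed limma's test with adjustment over all genes (adjusted p under 0.05), against 44.8% of all genes called lower. Differences between neighbours were not tested, and the neighbours were chosen after their values were seen. RPS16A and RPL21A were also read from shared probe sets. On unshared ones RPS16A, RPS19B and RPL21A changed by -0.48, -0.52 and -0.54.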
